A study of Mus musculus with 6 samples.

Results

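The core circadian clock genes were examined in cultures labelled mouse female germ stem cells (FGSC), which are ovarian cells that divide in vitro, and in their induced, differentiated form (Dif-FGSC). The members were the 10 rows of the deposited expression table with the symbols Arntl, Clock, Per1, Per2, Cry1, Cry2, Nr1d1, Nr1d2, Dbp and Bhlhe40, out of 24672 genes kept. Each group had 3 poly(A) RNA sequencing libraries of C57BL/6 cells at passage above 20, and no genetic change is named in the labels. FGSC were kept on inactivated STO fibroblasts with 10 ng/mL LIF, 20 ng/mL EGF, 10 ng/mL bFGF and 10 ng/mL GDNF. Dif-FGSC were reseeded on inactivated granulosa cells with retinoic acid at 0.1 µmol/L, BMP4 at 10 ng/mL and bFGF at 10 ng/mL. Feeder, growth factors and retinoic acid thus changed together, and both media held fetal bovine serum. Values are FPKM, fragments per length of transcript and per library depth, a scale on which genes can be compared. The table names its columns con and dif, and con was read as FGSC, so every direction below rests on that reading.

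The mammalian clock is a transcription loop that runs in most cells. The proteins of Clock and Arntl (BMAL1) pair and switch on genes that carry an E-box, among them the Per, Cry and Nr1d genes and Dbp. PER and CRY proteins then block that pair, and NR1D1 and NR1D2 (REV-ERB alpha and beta) repress Arntl through nuclear receptor elements. In cultured cells each cell keeps its own rhythm unless serum, glucocorticoid or another signal sets the cells together, and Per1 and Per2 also respond to such signals directly. The labels name neither the hour of harvest nor the time since the last medium change. For genes whose level follows the clock, phase and treatment cannot be told apart.

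RefSeq promoters of 8 of the 10 members, 12 entries in all on build GRCm38.p6, were searched for the short sequences through which the loop acts. Each entry runs from 250 bases before to 50 after a transcription start. Per2 and Bhlhe40 are named only. The letters searched, on both strands, were the E-box CACGTG, its variant CACGTT, the D-box in the forms TTATGTAA and TTACGTAA, the nuclear receptor half-site AGGTCA and the cyclic AMP element TGACGTCA. Of 32851 promoter entries of the same length in the table, 7.15% held the E-box, 4.68% its variant, 0.938% and 0.119% the D-box forms, 16.3% the half-site and 1.79% the cyclic AMP element. Per1, Cry1 and Nr1d1 are printed below for the E-box or its variant, and Nr1d2 and Arntl for the half-site. These 5 promoters were chosen by their matches, and no entry without a match is printed. They are written in the direction of the gene, and capitals mark a match.
Per1, chr11:69098699-69098998, plus strand: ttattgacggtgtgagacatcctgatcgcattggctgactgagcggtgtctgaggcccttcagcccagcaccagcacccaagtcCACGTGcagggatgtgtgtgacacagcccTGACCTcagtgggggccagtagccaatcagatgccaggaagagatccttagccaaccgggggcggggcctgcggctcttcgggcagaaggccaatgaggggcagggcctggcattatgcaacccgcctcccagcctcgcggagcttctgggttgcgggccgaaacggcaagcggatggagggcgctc
Cry1, chr10:85185005-85185304, minus strand: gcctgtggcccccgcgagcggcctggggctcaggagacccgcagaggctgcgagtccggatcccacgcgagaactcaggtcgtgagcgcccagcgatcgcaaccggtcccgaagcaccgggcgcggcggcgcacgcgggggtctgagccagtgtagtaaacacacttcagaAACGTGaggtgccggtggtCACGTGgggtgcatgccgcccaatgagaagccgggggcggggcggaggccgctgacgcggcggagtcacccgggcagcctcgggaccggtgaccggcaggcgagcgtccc
Nr1d1, chr11:98775328-98775627, minus strand: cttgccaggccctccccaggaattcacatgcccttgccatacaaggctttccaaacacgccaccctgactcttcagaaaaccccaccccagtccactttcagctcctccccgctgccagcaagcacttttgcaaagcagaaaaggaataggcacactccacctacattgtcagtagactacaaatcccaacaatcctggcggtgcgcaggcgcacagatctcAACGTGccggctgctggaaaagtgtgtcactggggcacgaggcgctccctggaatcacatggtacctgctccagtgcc
Nr1d2, chr14:18239057-18239356, minus strand: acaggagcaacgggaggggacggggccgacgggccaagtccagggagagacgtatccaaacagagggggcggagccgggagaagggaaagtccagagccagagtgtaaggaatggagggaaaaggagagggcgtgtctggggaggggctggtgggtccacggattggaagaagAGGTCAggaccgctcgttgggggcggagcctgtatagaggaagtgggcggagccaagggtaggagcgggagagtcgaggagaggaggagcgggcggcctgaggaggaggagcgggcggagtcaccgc
Arntl, chr7:113207261-113207560, plus strand: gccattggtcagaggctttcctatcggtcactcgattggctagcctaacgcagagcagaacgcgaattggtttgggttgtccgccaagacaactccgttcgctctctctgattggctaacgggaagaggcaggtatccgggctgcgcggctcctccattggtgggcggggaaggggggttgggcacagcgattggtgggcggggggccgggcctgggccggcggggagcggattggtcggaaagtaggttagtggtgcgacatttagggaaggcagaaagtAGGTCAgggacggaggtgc
The Per1 entry printed, 1 of 2, held an E-box that starts at base -166 and a half-site at -137. Cry1 held an E-box at -60 and the variant at -79. The variant also stood in Nr1d1, at -28, and in Cry2, at -166. A half-site stood in Nr1d2 at -77, in 1 of the 2 Arntl entries at base 32 after the start and in 1 of the 3 Clock entries at -119. The Dbp entry held none of these letters in this window, and neither D-box form nor the cyclic AMP element stood in any of the 12 entries. A match is a description of letters and was not tested as a binding site.

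Read from the step sizes of low values, the libraries held an estimated 17.35 to 27.25 M fragments, and 12388 to 12830 genes per library had a value above 0. Genes with a mean of at least 1 FPKM over the 6 libraries were tested with limma on log2(FPKM + 1), 9162 genes in all. Of these, 65.1% were called at an adjusted p under 0.05, 36.5% as higher and 28.6% as lower in Dif-FGSC. Markers of germ cells were nearly absent: 9 of 10 stayed under 0.1 FPKM in every library, with Ddx4 at 0.0104 at most and Dazl and Sycp3 listed at 0 in all 6. Fibroblast markers summed to 0.336 to 0.636 FPKM in FGSC and 0.163 to 0.235 in Dif-FGSC over 8 genes, with Col3a1 and Lum at 0. Granulosa markers summed to 0.616 to 0.834 and 0.466 to 0.681 over 8 genes, with Foxl2, Fshr and Cyp19a1 at 0. Other markers of these lists were above 0. Thy1 of the fibroblast list was listed at 0.337, 0.289 and 0.464 FPKM in FGSC. Of the granulosa list, Amh stood at 0.272 to 0.615 FPKM over the 6 libraries and Hsd17b1 reached 0.376. No gene of either list exceeded 0.615 FPKM in any library. Mast cell markers summed to 587 to 631 FPKM in FGSC and 746 to 752 in Dif-FGSC over 13 genes, of which 5 were tested and 4 rose. Kit, Gata2, Srgn and Cpa3 gave most of that sum, while Fcer1a, Tpsab1 and Tpsb2 stayed under 0.1 FPKM. Among the 4 that rose, Mcpt8 passed the filter only through Dif-FGSC, with means of 0.596 FPKM in FGSC and 8.21 in Dif-FGSC. Ms4a2 was below the filter and lower in every Dif-FGSC library, with means of 0.133 and 0.0596 FPKM. The part of these markers in the clock values was not tested. In such bulk samples fewer cells of a type and less RNA per cell cannot be told apart.

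Of the 10 clock genes, 8 passed the filter on low values. Per1, Per2, Nr1d1, Nr1d2 and Bhlhe40 rose, Dbp fell, and Clock and Cry2 were not called. The called share, 6 of 8, stands beside 65.1% of all tested genes and is not a result about the clock genes. The libraries of the 2 groups did not overlap for those 6, beside 70.7% of all tested genes, 39.6% higher and 31% lower. The median log2 difference of the 8 was 0.16, against 0.03 over all tested genes. Per2 rose 1.61 times and Nr1d2 1.53 times, and the other called differences were smaller than 1.2-fold in FPKM. Arntl and Cry1 were at or near 0 in every library and were not tested.

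**Figure D1:**
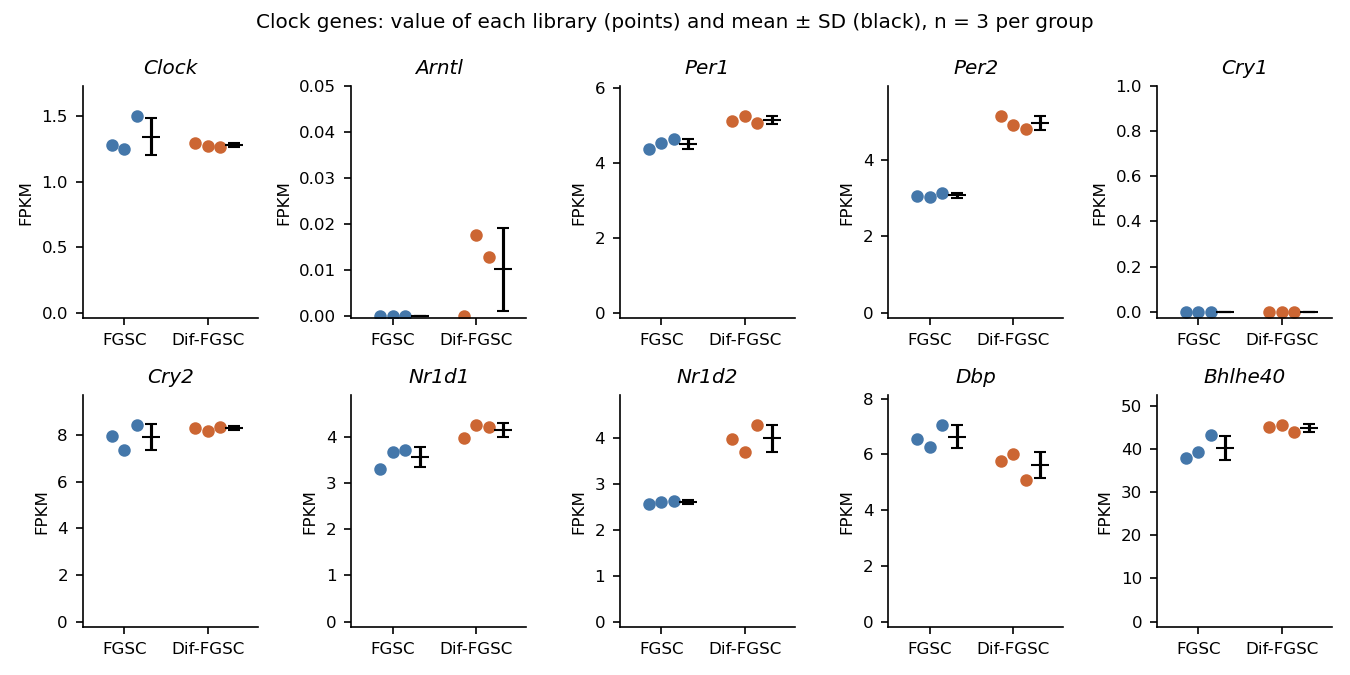
FPKM of each clock gene (y axis, starting at or just below 0, with its own scale in each panel) in 3 FGSC libraries (blue) and 3 Dif-FGSC libraries (orange), with the mean ± SD in black. Per2 and Nr1d2 are clearly apart between groups, Per1, Nr1d1, Bhlhe40 and Dbp narrowly apart, Clock and Cry2 overlap, Cry1 is 0 throughout and Arntl is below 0.02 FPKM.

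Of the activating pair, Clock was not called and Arntl was not tested. Clock, a DNA-binding bHLH-PAS protein, was listed at 1.28, 1.25 and 1.51 FPKM in FGSC and at 1.30, 1.27 and 1.27 in Dif-FGSC. FGSC replicate 3 was the highest, and the other FGSC values lay within or just below the Dif-FGSC range. The log2 difference was -0.04 ± 0.06 SE (limma adjusted p = 0.591), and 0.01 without FGSC replicate 3. The Clock values have more than the 6 significant digits of most rows, and 3 times each value is a short decimal, the pattern of a mean over 3 rows. RefSeq lists 3 transcripts for Clock. If the listed value is such a mean, the sum over the rows would be 3.74 to 4.52 FPKM in FGSC and 3.81 to 3.89 in Dif-FGSC. Among genes with a mean of at least 1 FPKM, 0.299% of those with 1 RefSeq transcript had such long values and 80.9% of those with 2 or more. Levels of Clock, Arntl, Arntl2 and Per3 may thus be understated relative to single-transcript genes. No other member had such long values. Other named genes did, among them Fbxw11, Gsk3b, Chd4, Ncor1, Tipin, Slc19a2, Cdkn1a, Tsc22d3, Usp2, Kit and Gata2, and the same limit holds for their levels.

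Arntl, the partner of CLOCK and the member without which the loop does not cycle in mice, was listed at 0 in all FGSC libraries and at 0, 0.0175 and 0.0128 FPKM in Dif-FGSC. On the longest transcript of 3995 bp the highest value is an estimated 1.37 fragments, and 3 fragments would be 0.0276 to 0.0433 FPKM in these libraries. For a mean over 3 rows, the sum at the highest value would be 0.0526 FPKM. No difference could be detected at this depth. Its paralogue Arntl2 (BMAL2), which can also pair with CLOCK, stood at 6.95, 6.81 and 5.84 FPKM in FGSC and 6.04, 6.04 and 6.42 in Dif-FGSC. The Arntl2 groups overlapped (log2 difference -0.07 ± 0.06 SE, limma adjusted p = 0.365). Arntl2 made up 99.7% or more of the summed FPKM of Arntl and Arntl2 in each library. Npas2, the paralogue of Clock, did not exceed 0.0106 FPKM.

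Of the Period genes, whose proteins carry the repressing complex into the nucleus, Per1 and Per2 rose, by unequal amounts, and Per3 was not tested. Per2 was listed at 3.04, 3.03 and 3.14 FPKM in FGSC and at 5.15, 4.90 and 4.79 in Dif-FGSC. The lowest Dif-FGSC library stood above the highest FGSC library by more than the spread within either group. The mean rose from 3.07 ± 0.0619 (SD, n = 3) to 4.95 ± 0.186 FPKM, 1.61 times. The log2 difference was 0.55 ± 0.04 SE (limma adjusted p = 2.82e-05), larger in size than that of 88.4% of tested genes. Per1 was listed at 4.37, 4.52 and 4.64 FPKM in FGSC and at 5.10, 5.26 and 5.05 in Dif-FGSC. The groups did not overlap, but the gap was small, and the mean rose 1.14 times (log2 difference 0.16 ± 0.04 SE, limma adjusted p = 0.0111). After quantile normalization the Per1 difference was 0.06 and not called (adjusted p = 0.186, range over the alternatives 0.00659 to 0.186). Per3, the least conserved Period gene, was below the filter, at 0.734, 0.690 and 0.842 FPKM in FGSC and 0.623, 0.625 and 0.627 in Dif-FGSC. It was lower in every Dif-FGSC library and was not tested. If its values are means over 3 rows, the sums would pass the filter, at 2.07 to 2.53 FPKM in FGSC and 1.87 to 1.88 in Dif-FGSC.

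Of the Cryptochromes, which bind and block the activating pair, only Cry2 had values above 0. Cry2 was listed at 7.96, 7.36 and 8.46 FPKM in FGSC and at 8.31, 8.20 and 8.37 in Dif-FGSC. The Dif-FGSC values lay inside the FGSC range (log2 difference 0.06 ± 0.05 SE, limma adjusted p = 0.317), and the sign turned after quantile normalization, to -0.04. Cry1 was listed at 0 in all 6 libraries. For its longest transcript of 3026 bp a count of 0 still permits 3 fragments, or 0.0571 FPKM at the lowest depth, against 7.36 FPKM or more for Cry2. Whether a listed 0 here means little RNA or a failed estimate was not tested. The glucocorticoid receptor gene Nr3c1 was likewise listed at 0 in all FGSC libraries, but at 19.8, 20.2 and 19.9 FPKM in Dif-FGSC. Cry1 carried both an E-box and its variant in the promoter printed above.

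The REV-ERB genes encode heme-binding nuclear receptors that repress Arntl. Nr1d2 was listed at 2.57, 2.62 and 2.64 FPKM in FGSC and at 3.98, 3.71 and 4.30 in Dif-FGSC. All Dif-FGSC libraries were above all FGSC libraries, and they spread more. The mean rose from 2.61 ± 0.0343 to 3.995 ± 0.295 FPKM (SD, n = 3), 1.53 times, with a log2 difference of 0.47 ± 0.05 SE (limma adjusted p = 0.000185). Nr1d1 was listed at 3.31, 3.68 and 3.70 FPKM in FGSC and at 3.97, 4.26 and 4.21 in Dif-FGSC. FGSC replicate 1 was the lowest, and the groups did not overlap. The mean rose 1.16 times (log2 difference 0.17 ± 0.05 SE, limma adjusted p = 0.0192). Quantile normalization ended the Nr1d1 call (adjusted p = 0.224), as did leaving out FGSC replicate 1 (0.0579), Dif-FGSC replicate 2 (0.0652) or Dif-FGSC replicate 3 (0.0582), in a range of 0.014 to 0.224. The activators that compete with them for the same elements were listed at or near 0, and the limit given above for a listed 0 holds here too. Rora was listed at 0 in every library, and Rorb did not exceed 0.00437 FPKM.

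Nr1d1 lies tail to tail with Thra, the thyroid hormone receptor alpha gene on the opposite strand, and the reference transcripts share 263 exonic bases. Thra was listed at 5.40, 5.60 and 5.08 FPKM in FGSC and at 4.38, 4.40 and 4.31 in Dif-FGSC. It fell 0.814 times (log2 difference -0.24 ± 0.04 SE, limma adjusted p = 0.00194) while Nr1d1 rose. The strand setting of the counting is not stated in the labels, and without it reads from the shared bases cannot be told apart.

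Dbp, a PAR bZIP activator that binds the D-box and is a direct E-box target, was the member that fell. It was listed at 6.55, 6.27 and 7.07 FPKM in FGSC and at 5.76, 6.00 and 5.10 in Dif-FGSC. The groups were apart by less than the range within either of them. The mean fell from 6.63 ± 0.403 to 5.62 ± 0.471 FPKM (SD, n = 3), 0.848 times, with a log2 difference of -0.21 ± 0.06 SE (limma adjusted p = 0.0239). The call was lost without FGSC replicate 1 (adjusted p = 0.0506), FGSC replicate 3 (0.0672) or Dif-FGSC replicate 3 (0.0687) and without the filter on low values (0.0545), in a range of 0.0037 to 0.0687. Dbp shares 539 exonic bases with Sphk2, a sphingosine kinase gene on the opposite strand. Sphk2 rose from 3.50 ± 0.0937 to 5.14 ± 0.23 FPKM (limma adjusted p = 9.86e-05), the opposite direction. The 2 other PAR bZIP genes were not called: Tef stood at 9.17 ± 0.389 and 9.78 ± 0.174 FPKM, and Hlf at 12.96 ± 1.24 and 12.2 ± 0.372. Nfil3, the repressor that competes with them at the D-box, fell 0.784 times, from 26.6 ± 2.87 to 20.9 ± 0.171 FPKM. Its log2 difference was -0.33 ± 0.07 SE (limma adjusted p = 0.00434).

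Bhlhe40 (DEC1), a bHLH repressor that competes at the E-box and also answers hypoxia and growth signals, was the most abundant member. It was listed at 37.9, 39.2 and 43.3 FPKM in FGSC and at 45.1, 45.6 and 43.9 in Dif-FGSC. FGSC replicate 3 lay just under the lowest Dif-FGSC library. The mean rose 1.12 times (log2 difference 0.16 ± 0.05 SE, limma adjusted p = 0.0232). The call was lost without FGSC replicate 1 (adjusted p = 0.0669), FGSC replicate 2 (0.0719), Dif-FGSC replicate 1 (0.0648) or Dif-FGSC replicate 2 (0.073), in a range of 0.00125 to 0.073. Its paralogue Bhlhe41 (DEC2) did not exceed 0.00369 FPKM, so Bhlhe40 made up at least 99.99% of their sum in each library.

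**Figure D2:**
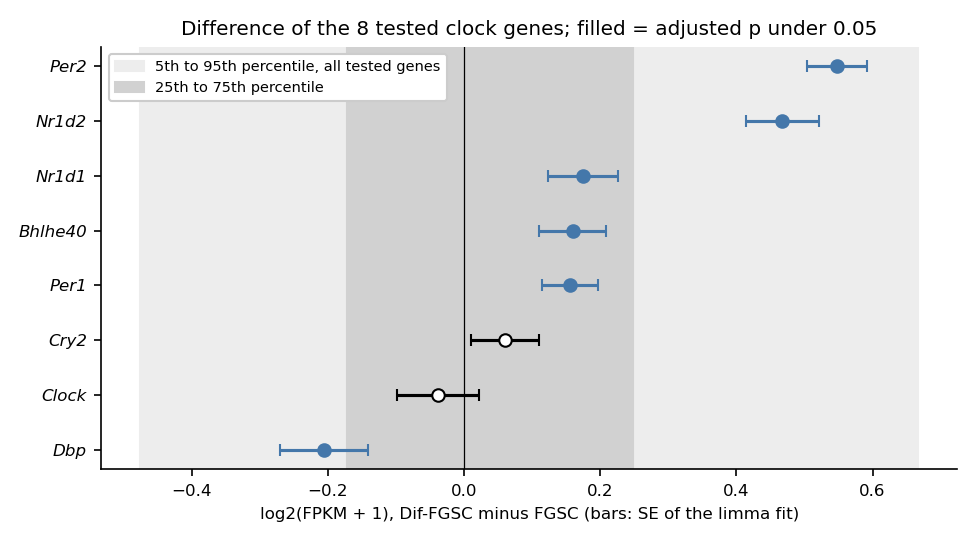
Log2 difference in FPKM + 1, Dif-FGSC minus FGSC (x axis), with the SE of the limma fit for each of the 8 tested clock genes, and filled points where the adjusted p was under 0.05. Light grey spans the 5th to 95th percentile of all tested genes (-0.48 to 0.67) and dark grey the 25th to 75th (-0.17 to 0.25). Per2 and Nr1d2 lie outside the dark band on the high side and Dbp on the low side, and no member lies outside the light band.

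By listed values, the 8 tested members could be ordered in FGSC. Bhlhe40, at percentile 89.5 among genes with a value above 0, was followed by Cry2, Dbp, Per1, Nr1d1, Per2, Nr1d2 and Clock, and no neighbours in that order overlapped between libraries. In Dif-FGSC the libraries of Dbp, Per1 and Per2 overlapped, as did those of Nr1d1 and Nr1d2, so these could not be ordered. The place of Clock depends on the row averaging: 3 times its listed values, 3.74 to 4.52 FPKM in FGSC, would stand above Nr1d2, Per2 and Nr1d1 and overlap Per1. In Dif-FGSC 3.81 to 3.89 would overlap Nr1d2. The median of the 8 tested members over all libraries was 4.42 FPKM, against 10.4 for all tested genes. Each tested member rested on an estimated 174.8 fragments or more per library, the least for Nr1d1, and 2338 to 3218 for Bhlhe40. These numbers use the longest reference transcript and cover counting error only.

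The balance within both paralogue pairs differed between the groups. Per1 made up 59.0%, 59.9% and 59.6% of the summed FPKM of Per1 and Per2 in FGSC, and 49.8%, 51.8% and 51.3% in Dif-FGSC. Nr1d1 made up 56.3%, 58.4% and 58.4% of the sum with Nr1d2 in FGSC and 49.96%, 53.5% and 49.5% in Dif-FGSC. The genes of both pairs thus came near equal shares. Dbp made up 40.7%, 41.7% and 43.5% of the sum with Tef in FGSC and 36.6%, 38.4% and 34.3% in Dif-FGSC. In these 3 pairs the groups did not overlap. For Dbp with Nfil3 they did, and the share of Dbp was 20.0% ± 1.70 in FGSC and 21.2% ± 1.30 in Dif-FGSC (SD, n = 3). Of the sum with Tef and Hlf, Dbp made up 21.6%, 22.6% and 25.2% in FGSC and 20.3%, 21.7% and 19.0% in Dif-FGSC. There the groups overlapped too. A share within a library does not depend on its scaling. These shares come from the same values as the tests above and were not tested again.

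**Figure D3:**
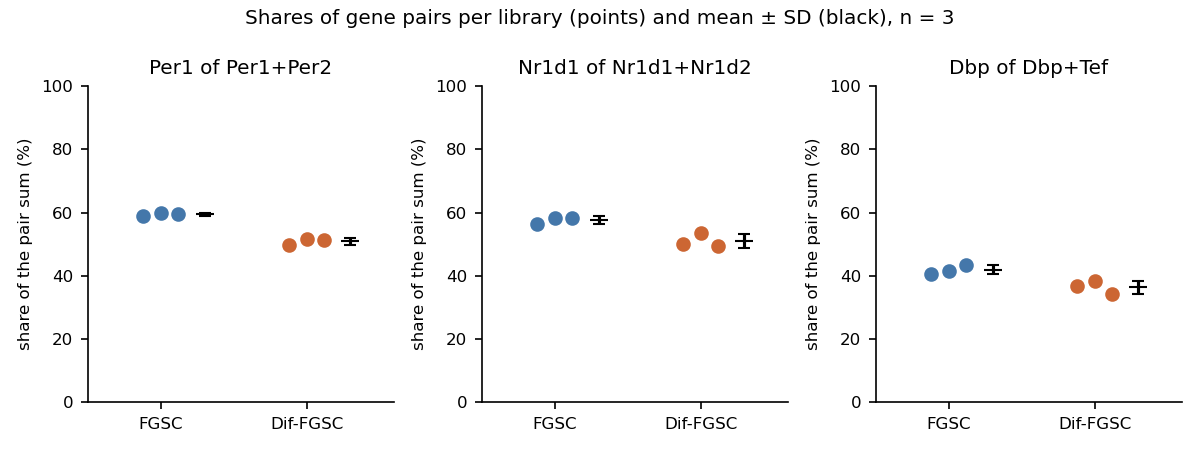
Share of the pair sum in FPKM (y axis, percent, 0 to 100) for Per1 with Per2, Nr1d1 with Nr1d2 and Dbp with Tef, per library in FGSC (blue) and Dif-FGSC (orange) with the mean ± SD in black. All 3 shares are lower in every Dif-FGSC library, with means of 59.5% and 50.9% for Per1, 57.7% and 51.0% for Nr1d1 and 42.0% and 36.5% for Dbp.

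The genes whose profiles over the 6 libraries were closest to Per2, by root mean square distance of centred log2(FPKM + 1), were C2cd3 (distance 0.0123), Xpr1, Nhlrc1, Syvn1 and Dnajc10 (0.02). Those closest to Nr1d2 were Dnajb9 (0.0161), Smg6, Me1 and Tal1 (0.0336). C2cd3, a centriole protein, was listed at 5.79, 5.85 and 6.05 FPKM in FGSC and at 9.33, 9.10 and 8.95 in Dif-FGSC. Dnajb9, a chaperone of the endoplasmic reticulum, stood at 4.65, 4.53 and 4.62 and at 6.76, 6.39 and 7.29. With 6 libraries in 2 groups, likeness of profile mostly means a rise of like size.

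The wider clock was followed through lists by role. Of 11 other loop genes 5 were tested, with none higher, 1 lower (Nfil3) and 4 not called. Among all tested genes 36.5% were higher and 28.6% lower. In every library 5 of the 11 stayed under 0.1 FPKM. Ciart (CHRONO), an E-box target and repressor, was listed at 5.01, 4.19 and 5.35 FPKM in FGSC and at 4.92, 4.64 and 4.91 in Dif-FGSC, with overlapping groups (log2 difference -0.002 ± 0.08 SE, limma adjusted p = 0.979). Without FGSC replicate 3, Arntl2 was also called lower, which makes 2.

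Of 23 enzymes that modify or degrade PER, CRY and REV-ERB proteins 20 were tested, with 13 higher, 1 lower and 6 not called, at a median log2 difference of 0.15 against 0.03 for all tested genes. Of all tested genes 36.5% were higher and 28.6% lower. Fbxw11, an F-box protein that marks PER for degradation, rose from 4.45 ± 0.394 to 7.86 ± 0.307 FPKM (SD, n = 3). Huwe1, a ubiquitin ligase of NR1D1, rose from 29.6 ± 3.1 to 45.6 ± 0.907 and Gsk3b, a kinase of several clock proteins, from 3.25 ± 0.0689 to 5.21 ± 0.066. Csnk2a2, a catalytic subunit of casein kinase 2, rose from 17.0 ± 0.763 to 22.0 ± 0.804 FPKM. The limma adjusted p of these was at most 0.000257. Of the casein kinase 1 genes in this list, Csnk1d rose 1.17 times, Csnk1a1 rose 1.09 times and Csnk1e was not called (limma adjusted p = 0.566). The Csnk1a1 call (limma adjusted p = 0.0105) was lost after quantile normalization (0.342). The lower member was Rbx1, a ubiquitin ligase subunit, at 0.907 times, and its call was lost without FGSC replicate 2 (adjusted p = 0.0646), Dif-FGSC replicate 1 (0.0617) or Dif-FGSC replicate 2 (0.0707).

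Of 26 cofactors of the clock proteins 25 were tested, with 13 higher, 6 lower and 6 not called (median log2 difference 0.11), beside 36.5% higher and 28.6% lower among all tested genes. Chd4, a chromatin remodeler found with PER, rose from 39.6 ± 0.513 to 60.8 ± 0.712 FPKM (limma adjusted p = 2.14e-06). Ncor1, the REV-ERB corepressor, rose 1.18 times, a call lost after quantile normalization (adjusted p = 0.0763) and without FGSC replicate 2 (0.0566) or Dif-FGSC replicate 1 (0.0508). Hdac3, the deacetylase it recruits, stood at 49.7 ± 0.741 and 47.8 ± 1.26 FPKM and was not called, except with median-ratio scaling (adjusted p = 0.0493). Dhx9, an RNA helicase, and Tipin, the partner of TIMELESS, fell to 0.814 and 0.82 times. Another of the 6 lower members, Kmt2a, was listed at 0 in every Dif-FGSC library, and whether this is a failed estimate was not tested.

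Genes that cycle in many tissues went both ways. Of 21 such outputs 16 were tested, with 7 higher, 7 lower and 2 not called (median log2 difference 0.03), beside the same shares of all tested genes. Slc19a2, a thiamine transporter, rose from 5.39 ± 0.121 to 11.1 ± 0.704 FPKM, Cdkn1a, the cycle inhibitor p21, from 25.8 ± 2.14 to 46.1 ± 0.491, and Por, the reductase of cytochrome P450 enzymes, from 37.7 ± 2.51 to 62.9 ± 1.61 (limma adjusted p at most 1.38e-05). Tsc22d3 (GILZ), a clock output and glucocorticoid target, fell from 6.39 ± 0.328 to 1.47 ± 0.0423 FPKM (limma adjusted p = 4.47e-07). Nampt, the enzyme of NAD salvage, fell 0.718 times. Usp2, a ubiquitin protease that cycles with Dbp in many tissues, was below the filter, at 0.503 ± 0.0664 and 0.307 ± 0.0687 FPKM. Its values have the pattern of a mean over 3 rows, so its place below the filter may depend on that averaging.

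Of 19 regulators and fellow targets through which serum, cyclic AMP and glucocorticoid reach the Per genes 18 were tested, with 13 higher, 2 lower and 3 not called (median log2 difference 0.40). All tested genes had a median of 0.03, with 36.5% higher and 28.6% lower, and the 13 include Nr3c1, listed at 0 in FGSC. Fos, Egr1 and Mkl2 were also under 1 FPKM on average in FGSC. Like Nr3c1, they passed the filter only through their Dif-FGSC values, so the filter favours their being called higher. Sik1, a kinase induced by cyclic AMP that restrains the resetting of Per1, was listed at 2.39, 2.07 and 2.32 FPKM in FGSC and at 8.45, 8.49 and 8.40 in Dif-FGSC (log2 difference 1.54 ± 0.05 SE, limma adjusted p = 5.07e-07). Crtc1, a coactivator of CREB at Per1, rose from 4.77 ± 0.0312 to 10.1 ± 0.116 FPKM. The immediate early genes Fos, Egr1 and Junb also rose. Fos went from 0.461 ± 0.0487 to 14.1 ± 0.398 FPKM and Egr1 from 0.974 ± 0.24 to 12.2 ± 0.302. Junb went from 23.4 ± 0.661 to 64.5 ± 2.91 FPKM. Klf9, a glucocorticoid-induced factor, and Nr4a1 were the 2 lower members, at 0.489 and 0.758 times. Beside these, Per1 stood at 1.14 times and Per2 at 1.61 times.

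**Figure D4:**
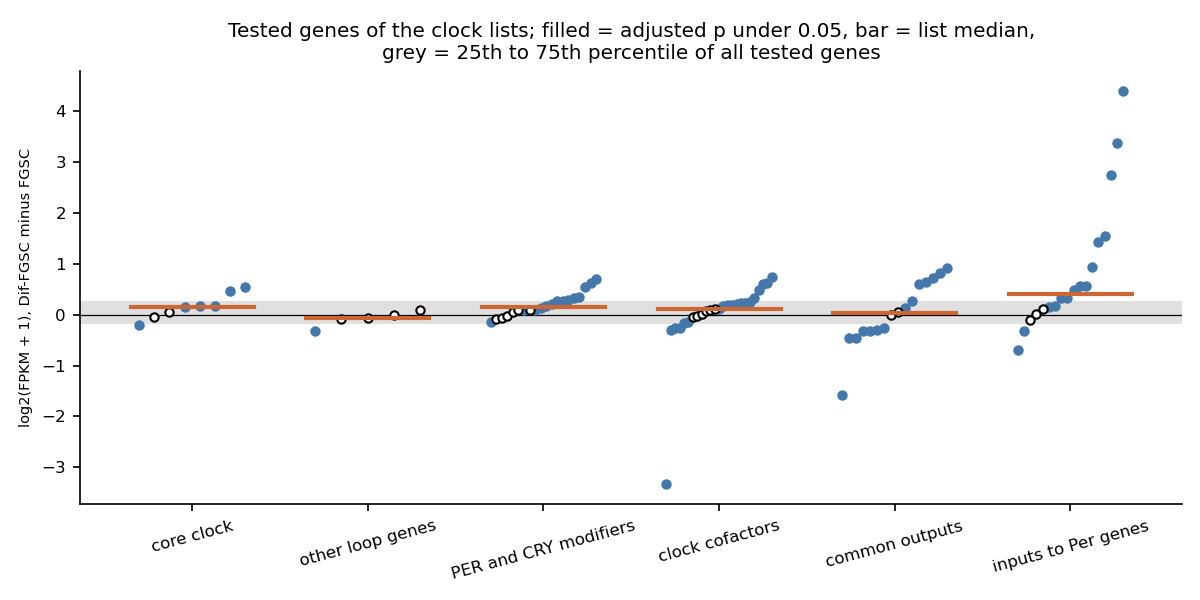
Log2 difference in FPKM + 1, Dif-FGSC minus FGSC (y axis), of every tested gene of the 6 clock lists (x axis), filled where called, with the list median as an orange bar and the 25th to 75th percentile of all tested genes in grey. The lowest point of the cofactors (Kmt2a) and the highest of the inputs (Nr3c1) belong to genes listed at 0 in 1 group, and the list medians run from -0.07 for the other loop genes to 0.40 for the inputs.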

How the data were processed

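RNA of 3 FGSC and 3 Dif-FGSC libraries was measured with a stranded mRNA kit, per the labels' protocols. The authors deposited 1 table of FPKM values with a row per gene symbol. HISAT2 4.8.2, Cufflinks 2.2.1 and the mouse build mm9 are named in the submitters' processing notes with no role. For annotation, strand setting and merging of rows, nothing is given in the sources used here. Of 24674 rows, 2 repeated a symbol and were dropped for a lower mean than its other row.

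Groups were compared with limma 3.58.1 in R 4.3.3 (intensity trend, Benjamini-Hochberg over all tested genes, call at adjusted p under 0.05) on log2(FPKM + 1), a scale that shrinks the differences of low genes, for genes with a mean of at least 1 FPKM. The script was tested on simulated data. Log2 differences are Dif-FGSC minus FGSC, with the SE of the fit, and ± after FPKM is the SD of 3 libraries. The labels do not say whether replicates are separate cultures: the p-values reflect the spread among these 6 libraries, and that spread may be technical.

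Depth came from the low values of genes that have 1 reference transcript. Of those worth under 6 fragments, 70.1% to 73.8% lay within 0.1 of a whole number, with the step chosen on the same values. The floor was 3 fragments. The reference is of another build and served for names, lengths, overlaps and promoters. The members and lists were chosen with earlier results of these data known. Named were all members, genes overlapping them, the called list genes with the largest differences, up to 4 a list, and up to 5 nearest profiles of each of the 2 members with the largest called differences. Other list genes were named after their values were seen, and some genes are not reported here. The alternatives were another pseudocount, filters, scaling, no trend, a replicate block and leaving out each library. Multiplying values by the number of rows they seem to average was chosen after seeing the data.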

Additional observations from a re-analysis of the deposited data

How the results depend on the processing

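Per2 and Nr1d2 stayed called under the 13 alternatives that tested them, with log2 differences of 0.46 to 0.67 and 0.39 to 0.59. Quantile normalization gave log2 differences of 0.062 for Per1 and 0.076 for Nr1d1, neither called, and left 3 clock genes higher. The whole table moved as well. Of 9162 tested genes 2789 were then higher and 3185 lower, against 3343 and 2622 in the main fit. The median log2 difference over all tested genes went from 0.03 to -0.02. With a filter of 5 FPKM, 3 clock genes were tested, without Per2 and Nr1d2, and 1 was higher, and the inputs to the Per genes had 0 lower, since fewer genes were tested. Without a filter the log2 difference of Dbp was -0.21 and not called, so 0 clock genes were lower. With one library left out, Nr1d1 ran from 0.13 to 0.20, Dbp from -0.25 to -0.15 and Bhlhe40 from 0.12 to 0.21. The clock genes called then numbered 3 to 5 higher and 0 to 1 lower, the lower other loop genes 1 to 2, and the lower enzymes acting on PER and CRY 0 to 1. Those enzymes had 2 lower members with median-ratio scaling and 2 with quantile normalization. The causes were not tested.

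The replicate numbers were also fitted as a replicate block. Deviations of same-numbered libraries correlated at 0.13, 0.01 and 0.17, and 1 of these is not over 0.1, so the numbers were not taken as pairs. With the block Dbp, at -0.21, was not called (adjusted p = 0.054), which left 0 clock genes lower. Depth limits Arntl and Cry1, for which differences under about 3 fragments could not be seen. Where a listed 0 is a failed estimate, larger differences could be missed as well. Without the filter Arntl was not called (limma adjusted p = 0.3), and Cry1 was not tested.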
